A study of Mus musculus with 5 samples.

Results

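A set of 48 genes that act in mitosis, at the kinetochore, in the spindle assembly checkpoint and in cytokinesis, was followed in mouse liver tumours that lack Hdac3. Each gene was taken as the probe set that carries exactly its symbol and has the highest mean over all arrays, and 46 of the 48 were found among the 19938 genes tested. The other 2 were Ccnb1 and Sgol1. Ccnb1 is not analysed here, and Sgol1 stands under its current symbol, Sgo1, and was left out of all counts. Each of the 46 genes had 1 probe set, and no filter on low values was applied.

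Liver RNA was hybridised to 5 Affymetrix gene arrays and came from male mice about 10 months old. The 2 controls were normal livers of Hdac3FL/+; AlbCre+ mice, with 1 floxed and 1 wild-type allele of Hdac3. The 3 tumours came from Hdac3FL/-; AlbCre+ mice, in which the floxed allele is paired with a null allele. Both genotypes carry Cre driven by the albumin promoter, active in hepatocytes, so hepatocytes of the controls keep only the wild-type allele and other liver cells of the tumours are not deleted by it. Every Hdac3-null sample was a tumour and every control was normal tissue, so genotype and tumour cannot be told apart. Whole tissue was measured, and more dividing cells and more of these transcripts per cell cannot be told apart.

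Mitosis distributes the copied chromosomes. Microtubules of the spindle attach to kinetochores, protein assemblies built on the centromere. The checkpoint proteins hold back the anaphase-promoting complex, a ubiquitin ligase, until every kinetochore is attached. The ligase then triggers the removal of securin (Pttg1) and cyclin B, separase (Espl1) cuts cohesin, and the cell divides by cytokinesis. Adult hepatocytes seldom divide, and many of them are polyploid because an earlier cytokinesis failed. Many genes of this set, though not all, are known to be silent in resting cells and to be switched on in G2 and mitosis. This control acts through a promoter sequence called the cell cycle genes homology region (CHR) that binds the MuvB complex, and through CCAAT boxes that bind NF-Y.

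The promoters of 6 of the genes are shown as examples with and without these sequences, and the genes themselves ranged from the largest rise to no rise. They run from 220 bases before the RefSeq start site to 30 after it, on the gene's strand, in build GRCm38.p6. Capitals mark CHR letters (TTTGAA or TTCGAA) and CCAAT boxes, searched on both strands, so that a box on the other strand reads ATTGG. Ect2, which activates RhoA at the cleavage furrow, lies at chr3:27153825-27154074 on the minus strand, Mki67 (the proliferation marker Ki-67) at chr7:135716350-135716599 on the minus strand, Ccnb2 (cyclin B2) at chr9:70421525-70421774 on the minus strand and Cdk1 (the mitotic kinase) at chr10:69352883-69353132 on the minus strand. Ect2 has 2 listed starts, and the window with the most matches is shown, while positions are plotted from the first listed start. Espl1 lies at chr15:102296073-102296322 on the plus strand and Pttg1 at chr11:43425952-43426201 on the minus strand.
Ect2: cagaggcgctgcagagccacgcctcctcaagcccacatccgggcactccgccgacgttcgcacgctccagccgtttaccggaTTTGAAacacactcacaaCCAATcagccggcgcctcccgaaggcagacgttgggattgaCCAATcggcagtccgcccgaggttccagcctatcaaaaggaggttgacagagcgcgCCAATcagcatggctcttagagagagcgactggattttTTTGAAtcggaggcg
Mki67: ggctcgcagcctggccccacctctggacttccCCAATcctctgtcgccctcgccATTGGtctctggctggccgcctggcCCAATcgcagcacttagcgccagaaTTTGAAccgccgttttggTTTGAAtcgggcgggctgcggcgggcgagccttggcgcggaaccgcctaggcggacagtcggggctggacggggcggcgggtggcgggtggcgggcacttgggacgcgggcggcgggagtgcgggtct
Ccnb2: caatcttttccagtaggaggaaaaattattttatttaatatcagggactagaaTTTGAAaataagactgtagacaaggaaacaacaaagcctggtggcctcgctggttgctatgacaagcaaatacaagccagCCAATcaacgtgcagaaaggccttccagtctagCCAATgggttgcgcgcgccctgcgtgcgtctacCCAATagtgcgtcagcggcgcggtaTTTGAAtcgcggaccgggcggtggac
Cdk1: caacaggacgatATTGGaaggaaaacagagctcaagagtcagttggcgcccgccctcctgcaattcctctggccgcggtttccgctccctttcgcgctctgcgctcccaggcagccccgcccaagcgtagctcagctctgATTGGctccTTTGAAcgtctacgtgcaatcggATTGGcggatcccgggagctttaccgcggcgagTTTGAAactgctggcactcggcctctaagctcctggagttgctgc
Espl1: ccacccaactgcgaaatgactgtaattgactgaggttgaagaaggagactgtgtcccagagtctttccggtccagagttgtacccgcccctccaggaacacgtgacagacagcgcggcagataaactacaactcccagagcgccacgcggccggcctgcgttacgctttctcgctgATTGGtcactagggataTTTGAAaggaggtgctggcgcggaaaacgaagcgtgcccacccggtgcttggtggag
Pttg1: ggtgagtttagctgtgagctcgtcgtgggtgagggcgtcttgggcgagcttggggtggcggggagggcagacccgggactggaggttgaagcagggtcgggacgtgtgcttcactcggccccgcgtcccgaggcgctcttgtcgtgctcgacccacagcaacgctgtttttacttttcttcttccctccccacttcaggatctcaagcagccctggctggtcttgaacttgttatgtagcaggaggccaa

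Within these stretches Ect2, Mki67, Ccnb2 and Cdk1 each held 2 CHR matches and 3 CCAAT boxes. In Ccnb2 the CHR nearest the start was centred 6.5 bases after it, with CCAAT boxes centred 19.0, 52.0 and 85.0 bases before it. Espl1 held 1 of each, and Pttg1 held neither. These picked genes do not show how the number of matches goes with a rise over the set. Over the set, a promoter was listed for 40 of the 46 genes, each window running from 250 bases before the start to 50 after it. Of those 40 genes, 29 (72.5%) held a CHR and 30 (75%) a CCAAT box, against 21.7% and 41.1% of the 27025 genes in the promoter table. Both sequences stood together in 25 genes (62.5%, against 8.61% of all genes), and the letters of the 2 sequences can overlap by a base. The CHR matches lay close to the start. Counting 1 start per gene, 30 of 37 matches (81.1%) were centred within 75 bases of it, against 32.4% of the matches over all genes. The 75-base limit and the 6 genes shown were chosen after values of these data were seen. Among S-phase genes of the replication machinery 10 of 47 (21.3%) held a CHR, and among other genes of G2 and mitosis 43 of 67 (64.2%) did. A match is a string of letters and was not shown to be bound in these samples.

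**Figure D1:**
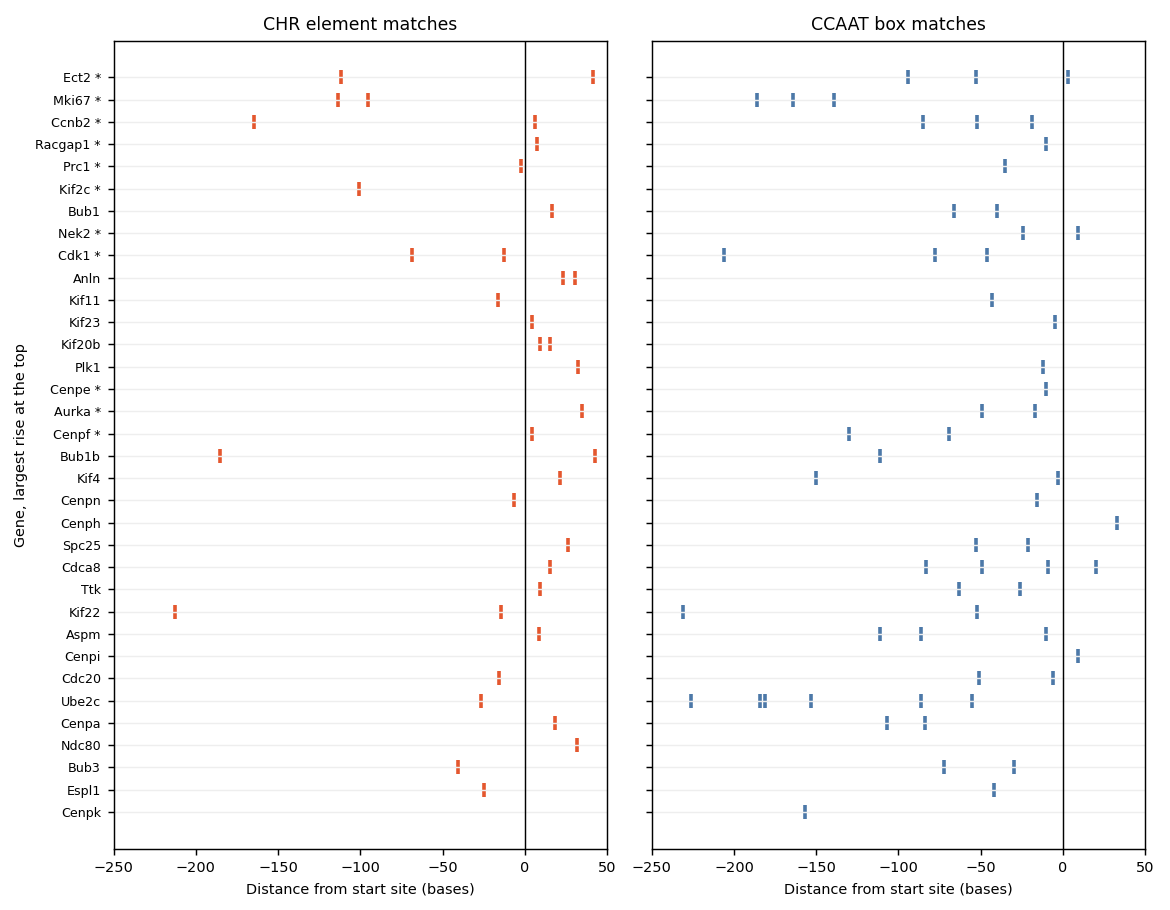
Positions of CHR matches (left) and CCAAT boxes (right) in the 1 window per gene used for the distances. The x axis is the distance from the RefSeq start site in bases, and genes with at least 1 match are ordered by their tumour minus control difference, the largest at the top (asterisk: risen at adjusted p under 0.05). Of 37 CHR matches 30 lie within 75 bases of the start, 8 of 13 in genes that rose and 22 of 24 in the others, and CCAAT boxes lie mostly before the start.

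The genes of the set were higher in the tumours as a group, though to very different degrees. Values are the deposited log2 expression values, and differences are tumour mean minus control mean in log2 units, so that 1 unit is a 2-fold difference. At a limma adjusted p under 0.05 over all genes, 16 of 46 genes rose (34.8%) and 1, Spc24, fell, whereas 5.6% of all genes tested rose and 4.96% fell (10.6% in either direction). In 36 genes (78.3%) all 3 tumours lay above both controls, as they did for 21.1% of all genes, and in 1 gene all lay below both, as for 23.1%. The median difference was 1.07, against -0.02 over all genes. The smallest two-sided p that 2 and 3 arrays allow in an exact permutation test is 0.1, so the calls draw on a spread estimated over all genes by limma. The calls also needed both controls, since 0 of 46 genes rose without control 1 (21 at an unadjusted p under 0.05) and 0 without control 2 (25 at an unadjusted p under 0.05). Over all genes the calls fell to 129 and 108 in those fits, from 2106. Without tumour 2, 3 of 46 genes rose (Ect2, Prc1 and Cdk1), and without tumour 1, 32 did. Over all 19938 genes, 703 rose without tumour 2 and 1153 without tumour 1, against 1117 with all arrays.

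Tumour 1 was the lowest of the tumours. The median over the set was 0.55, 1.15 and 1.49 above the control mean in tumours 1, 2 and 3, and -0.04, -0.04 and 0.03 over all genes. Tumour 1 had the lowest value of the 3 tumours in 42 of 46 genes (91.3%), as in 37.5% of all genes, and tumour 3 had the highest in 32 genes (69.6%), as in 46.6% of all genes. A low signal limits 12 genes, whose control mean lay under 4.34, the 25th percentile of values on the controls. They were Tpx2, Prc1, Bub1, Kif11, Kif20b, Cenpe, Kif4, Cenph, Ttk, Aspm, Cenpi and Cenpk. Control 1 of Ect2 (4.11), Kif2c (4.22) and Anln (4.24) and control 2 of Nuf2 (4.32) also lay under that level. Such a value was not shown to be above background, and the size of a rise from it may be understated. Cenpi and Cenpk lay under that level in both groups. Another annotated gene overlaps 15 of the 46, among them Ccna2 (Exosc9), Prc1 (Rccd1) and Aurka (Cstf1), and the positions of the probes were not analysed here.

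**Figure D2:**
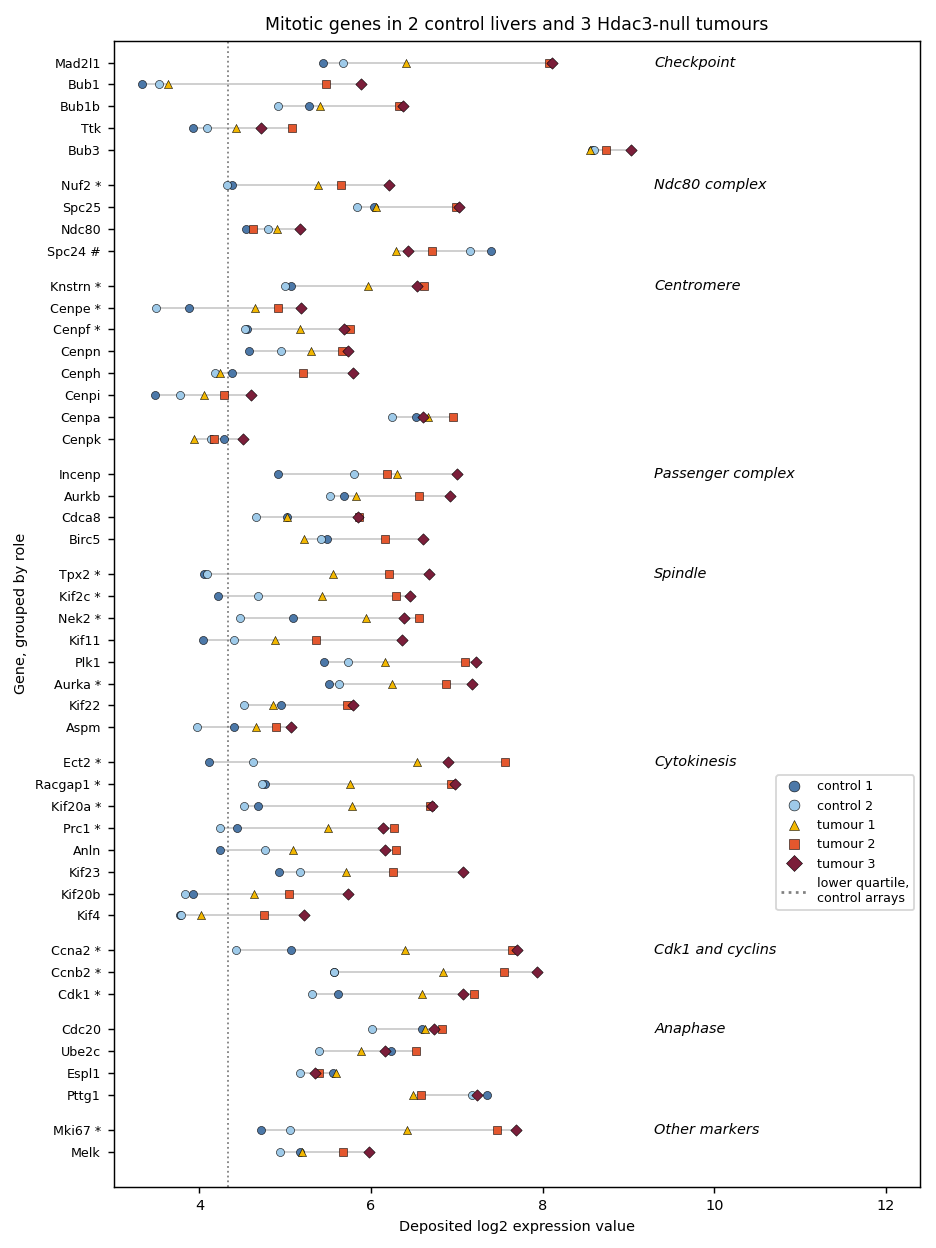
Deposited log2 value (x axis) of each of the 46 genes (y axis, grouped by role) on each array, with circles for the 2 controls and a triangle, square and diamond for tumours 1, 2 and 3. An asterisk marks a gene that rose and # the 1 that fell at a limma adjusted p under 0.05, and the dotted line is the 25th percentile of values on the controls, 4.34. All 8 cytokinesis genes have every tumour to the right of both controls, and Spc24 has every tumour to the left.

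Cdk1 and both measured cyclins rose, and Ccnb1, the other cyclin of the set, is not analysed here. Cdk1, the kinase that drives entry into mitosis, had log2 values of 5.61 and 5.31 (controls) against 6.59, 7.19 and 7.08 (tumours 1, 2 and 3), a difference of 1.5 (95% confidence interval 0.96 to 2.03; limma adjusted p = 0.0136), or 2.82-fold. Cyclin A2 (Ccna2), its partner in late S phase and G2, stood at 5.07 and 4.43 (controls) against 6.39, 7.64 and 7.70 (tumours 1, 2 and 3). It rose by 2.49 (95% confidence interval 1.42 to 3.57; adjusted p = 0.0233), the second largest difference of the set, and control 1 was the higher of its controls. Cyclin B2 (Ccnb2) stood at 5.57 and 5.57 (controls) against 6.84, 7.55 and 7.93 (tumours 1, 2 and 3) and rose by 1.87 (95% confidence interval 1.11 to 2.64; adjusted p = 0.0199). In all 3 genes tumour 1 was lowest among the tumours and still above both controls by more than the controls differed from each other.

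Cytokinesis genes came next, with 4 of 8 risen and 0 fallen, and with all 8 above both controls in every tumour. Ect2 stood at 4.11 and 4.62 (controls) against 6.54, 7.56 and 6.89 (tumours 1, 2 and 3), with tumour 2 highest. Its difference of 2.63 (95% confidence interval 1.83 to 3.43; limma adjusted p = 0.00888), or 6.19-fold, was the largest of the set. Control 1 lay under the dim level of 4.34 and the control mean just above it, at 4.37, so the size of this fold has the limit given for dim genes. Racgap1, the partner that brings Ect2 to the central spindle, stood at 4.76 and 4.73 (controls) against 5.76, 6.93 and 6.98 (tumours 1, 2 and 3) and rose by 1.81 (adjusted p = 0.0387). Prc1, which bundles the antiparallel microtubules of the central spindle, stood at 4.43 and 4.24 (controls) against 5.50, 6.27 and 6.14 (tumours 1, 2 and 3) and rose by 1.63 (adjusted p = 0.0156), from dim values. The kinesin Kif20a, which carries Plk1 to the central spindle, stood at 4.68 and 4.52 (controls) against 5.78, 6.69 and 6.71 (tumours 1, 2 and 3) and rose by 1.79 (adjusted p = 0.0208). The groups did not overlap in any of these genes, and tumours 2 and 3 lay close together in Racgap1, Kif20a and Prc1. Anln, a scaffold of the contractile ring, the motors Kif23 and Kif20b of the midbody, and Kif4, a kinesin of chromosome arms and midzone, did not pass. Their differences were 1.34 (adjusted p = 0.09), 1.30 (0.093), 1.26 (0.0585) and 0.88 (0.171).

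Of 8 spindle genes, 4 rose and 0 fell. Tpx2, which activates Aurora A and nucleates spindle microtubules, was dim in the controls. It stood at 4.05 and 4.09 (controls) against 5.55, 6.21 and 6.67 (tumours 1, 2 and 3) and rose by 2.08 (95% confidence interval 1.30 to 2.86; limma adjusted p = 0.0156). Aurora A itself (Aurka), a kinase of the spindle poles, stood at 5.51 and 5.63 (controls) against 6.24, 6.88 and 7.18 (tumours 1, 2 and 3). It rose by 1.2, and its adjusted p of 0.0488 lay close to the threshold. This call was lost with arrays shifted to a common median and with quantile normalisation repeated. Kif2c, a kinesin that takes apart wrongly attached microtubules, stood at 4.22 and 4.68 (controls) against 5.43, 6.29 and 6.46 (tumours 1, 2 and 3) and rose by 1.61 (adjusted p = 0.0371). Nek2, a kinase of centrosome separation, stood at 5.09 and 4.47 (controls) against 5.94, 6.56 and 6.38 (tumours 1, 2 and 3) and rose by 1.51 (adjusted p = 0.0221). In all 4 genes every tumour lay above both controls, but the controls of Nek2 and of Kif2c lay farther apart than those of Tpx2 and Aurka. Not called were Plk1, the polo kinase (1.23, adjusted p = 0.0736), Kif11, which pushes the poles apart (1.31, 0.118), Kif22, a chromosome-arm kinesin (0.72, 0.233), and Aspm, a spindle pole protein (0.68, 0.0856).

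Among 8 measured genes of the centromere and its attachment, 3 rose. Cenpe, a kinesin that carries chromosomes to the spindle equator, stood at 3.88 and 3.50 (controls) against 4.65, 4.91 and 5.18 (tumours 1, 2 and 3) and rose by 1.22 (limma adjusted p = 0.0205), from dim values. Cenpf, a large kinetochore protein of G2 and mitosis, stood at 4.56 and 4.53 (controls) against 5.17, 5.75 and 5.69 (tumours 1, 2 and 3) and rose by 0.99 (adjusted p = 0.0341). Knstrn, which attaches to kinetochores and microtubules, stood at 5.07 and 5.00 (controls) against 5.96, 6.62 and 6.53 (tumours 1, 2 and 3) and rose by 1.33 (adjusted p = 0.0191). Groups did not overlap in these 3. Cenpa and the genes of the network built on it did not pass. Cenpa, the histone H3 variant that marks the centromere, differed by 0.35 (95% confidence interval -0.06 to 0.76; adjusted p = 0.263). Cenpn, Cenph and Cenpi, of the network built on it, differed by 0.80 (adjusted p = 0.0555), 0.80 (0.325) and 0.68 (0.092). Cenpk, of the same network, was dim in both groups, at 4.28 and 4.14 (controls) against 3.93, 4.17 and 4.51 (tumours 1, 2 and 3), with tumours on either side of the controls.

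The 4 subunits of the Ndc80 complex, the rod that binds microtubules, did not move together. Nuf2 stood at 4.38 and 4.32 (controls) against 5.38, 5.65 and 6.21 (tumours 1, 2 and 3) and rose by 1.40 (95% confidence interval 0.79 to 2.01; limma adjusted p = 0.0236). Spc24 stood at 7.40 and 7.15 (controls) against 6.29, 6.71 and 6.43 (tumours 1, 2 and 3). It fell by 0.80 (95% confidence interval -1.22 to -0.38; adjusted p = 0.0394), the 1 gene of the set called fallen. Every tumour lay below both controls, although the call was lost without control 1, control 2 or tumour 1, at an adjusted p under 0.01, and in a test against a 1.2-fold change (adjusted p = 0.112). Spc25, which pairs with Spc24, had values of 6.04 and 5.83 (controls) against 6.06, 6.98 and 7.02 (tumours 1, 2 and 3), a difference of 0.75 in the other direction that did not pass (adjusted p = 0.207). Ndc80, which pairs with Nuf2, differed by 0.23 (adjusted p = 0.55), and its groups overlapped.

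None of 5 checkpoint genes and none of 4 genes of the chromosomal passenger complex passed, although most stood higher in the tumours. Limma called 0 of the 5 (3 at an unadjusted p under 0.05) and 0 of the 4 (3 at an unadjusted p under 0.05). Mad2l1, the protein that inhibits Cdc20, stood at 5.44 and 5.67 (controls) against 6.40, 8.07 and 8.11 (tumours 1, 2 and 3), so that tumours 2 and 3 lay together and far above tumour 1. Its difference, 1.97 (95% confidence interval 0.67 to 3.27; adjusted p = 0.0726), was the largest among them. Bub1, a checkpoint kinase, showed the same split, with 3.33 and 3.53 (controls) against 3.63, 5.47 and 5.88 (tumours 1, 2 and 3), and its controls and tumour 1 were dim. Its difference was 1.56 (adjusted p = 0.202). Bub1b (BubR1) differed by 0.94 (adjusted p = 0.136) and the kinase Ttk by 0.73 (0.0872). Bub3, which also acts outside mitosis, had overlapping groups, at 8.57 and 8.60 (controls) against 8.55, 8.73 and 9.03 (tumours 1, 2 and 3), and differed by 0.19 (adjusted p = 0.575). In the passenger complex the kinase Aurkb differed by 0.83 (adjusted p = 0.175), the scaffold Incenp by 1.14 (0.103), borealin (Cdca8) by 0.74 (0.189) and survivin (Birc5) by 0.55 (0.465). Without tumour 1, Mad2l1, Bub1, Bub1b, Ttk, Aurkb, Cdca8 and Birc5 were among the 32 genes called risen.

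Genes that carry out and trigger anaphase stood apart from the cyclins. The 4 measured had a median difference of 0.23, against 1.87 for Cdk1 and the cyclins, and limma called 0 of them (0 at an unadjusted p under 0.05). Cdc20, which activates the anaphase-promoting complex, differed by 0.43 (95% confidence interval -0.05 to 0.91; adjusted p = 0.249) and Ube2c, its ubiquitin-conjugating enzyme, by 0.37 (95% confidence interval -0.36 to 1.11; adjusted p = 0.521). Control 1 was the higher control in both, by 0.57 for Cdc20 and 0.84 for Ube2c, so these differences lean on control 2. Every tumour lay above both controls for Cdc20, and the groups overlapped for Ube2c. Separase (Espl1) stood at 5.55 and 5.17 (controls) against 5.60, 5.39 and 5.34 (tumours 1, 2 and 3), a difference of 0.08 (adjusted p = 0.829). Securin (Pttg1) stood at 7.35 and 7.17 (controls) against 6.49, 6.58 and 7.24 (tumours 1, 2 and 3), a difference of -0.49 (95% confidence interval -1.10 to 0.12; adjusted p = 0.293), with tumours 1 and 2 below the controls and tumour 3 between them. Of 13 subunits of the anaphase-promoting complex and its other activator, 0 rose and 2 fell, where 5.6% of all genes rose and 4.96% fell. The 2 were Anapc10, which fell by 0.64 (adjusted p = 0.0341), and Anapc13, by 0.58 (0.0365). Of 9 measured cohesin genes, whose product separase cuts, limma called 0 (0 at an unadjusted p under 0.05).

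The proliferation markers outside these roles differed from each other. Mki67 stood at 4.72 and 5.06 (controls) against 6.42, 7.47 and 7.68 (tumours 1, 2 and 3) and rose by 2.30 (95% confidence interval 1.36 to 3.24; limma adjusted p = 0.02). Melk, a kinase of dividing cells, stood at 5.18 and 4.94 (controls) against 5.19, 5.67 and 5.97 (tumours 1, 2 and 3) and differed by 0.55 (adjusted p = 0.233). Mki67 had every tumour above both controls by more than 1 unit, while tumour 1 stood level with control 1 for Melk.

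**Figure D3:**
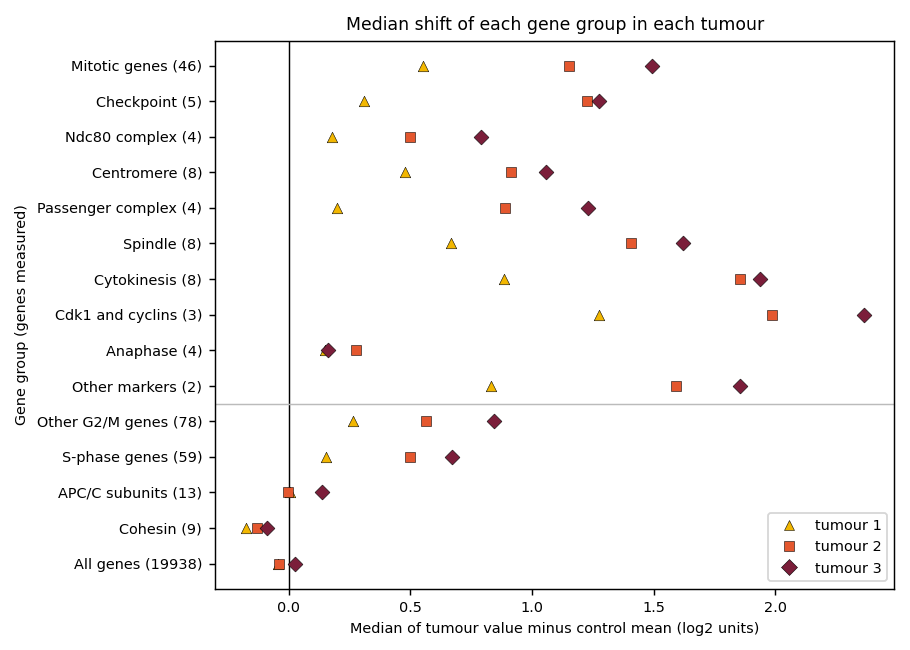
Median over each gene group (y axis, with the number of genes measured) of the tumour value minus the control mean, in log2 units (x axis), for tumours 1, 2 and 3. Cdk1 and its cyclins and the cytokinesis genes lie farthest to the right in each tumour, the anaphase genes lie between 0.15 and 0.28, and the other G2/M and S-phase genes lie between 0.16 and 0.85.

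Each tumour had a general shift of cell cycle genes, and the genes of the set were next compared with it. The shift was the median, over 137 cell cycle genes outside the set (59 of S phase and 78 others of G2 and mitosis), of the array's value minus the gene's control mean. It was 0.18, 0.56 and 0.83 in tumours 1, 2 and 3, and 0.05 and -0.05 in the controls. Of these reference genes 25 rose (18.2%) and 2 fell, where 5.6% of all genes rose and 4.96% fell. Within the set, 31 of 46 genes (67.4%) lay above the shift in each of the 3 tumours, as did 6.83% of all genes, and 4 lay below it in each (72.8% of all genes). The medians over all genes, -0.04, -0.04 and 0.03, lay under the shift of each tumour, so most genes lay below it. Of the 137 reference genes, whose median is the shift, 49 (35.8%) lay above it in each tumour and 48 below it. After the shift was subtracted from every array, limma called 14 of 46 genes above it (30.4%), against 3.05% of all genes, and 2 below it, against 14.7%. Of the reference genes 11 (8.03%) were called above it and 7 below it. The shift is itself an estimate and was treated as known, and the subtraction gave nearly all genes a common standard error, 0.303 at the median of the set. It put the spread of the shifts between tumours into every gene. Limma then weighted the shared spread with 25.3 prior degrees of freedom, against 2.98 without the subtraction. The p-values of this fit therefore do not measure the spread of each gene between replicates alone.

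Ect2 exceeded the shift most, by 1.99, 2.63 and 1.69 in tumours 1, 2 and 3, a mean of 2.10 (95% confidence interval 1.44 to 2.77; limma adjusted p = 2.44e-05). Ccna2 exceeded it by 1.97 (adjusted p = 5.25e-05), with 1.46, 2.33 and 2.11 in the tumours, and Mki67 by 1.78 (adjusted p = 0.00014), with 1.35, 2.02 and 1.96. Tpx2 followed at 1.55 (adjusted p = 0.00043), with 1.30, 1.58 and 1.77. The smallest of these excesses in any tumour was 1.30, so each tumour had all 4 genes at more than 2-fold beyond its own shift. Further down came Mad2l1 (1.44, adjusted p = 0.00328), Ccnb2 (1.35, 0.00188), Racgap1 (1.28, 0.00419) and Kif20a (1.26, 0.00359). Prc1, Kif2c, Bub1, Nek2, Cdk1 and Nuf2 were also called, with means between 0.88 and 1.11 and adjusted p between 0.0103 and 0.0474. Bub1 exceeded the shift by 0.02, 1.48 and 1.62, so that in tumour 1 it stood at the shift itself. Mad2l1 and Bub1 were called here and not against the controls alone, in a fit whose shared spread differs. The call of Bub1 was lost with S-phase genes, other G2/M genes or brighter genes alone as the reference, with the mean of probe sets, at an adjusted p under 0.01, and without control 1, control 2, tumour 2 or tumour 3.

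Of the genes that rose against the controls, Knstrn, Cenpe, Aurka and Cenpf were not called above the shift (0.81, 0.70, 0.67 and 0.47; limma adjusted p between 0.0566 and 0.196). Spc24 lay below it, at -1.16, -1.13 and -1.68 in tumours 1, 2 and 3 (mean -1.32, adjusted p = 0.0026) and Pttg1 at -0.95, -1.25 and -0.85 (mean -1.02, adjusted p = 0.0178). Cenpk and Bub3 also lay below it in each tumour, at means of -0.53 and -0.34, and were not called (adjusted p = 0.155 and 0.333). Espl1 had a mean of -0.44 (adjusted p = 0.241), with tumour 1 at the shift.

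A stricter reference was the median of the set itself, which the genes of the set help to define. Against it limma called 5 genes above, Ect2 (1.56, adjusted p = 0.00276), Ccna2 (1.43, 0.00631), Mki67 (1.24, 0.0143), Tpx2 (1.01, 0.031) and Mad2l1 (0.90, 0.0495), where 1.5% of all genes were. It called 4 below, Spc24, Pttg1, Cenpk and Espl1, where 72.1% of all genes were. Of the 137 reference genes 3 were called above it and 34 below it. Ect2, Ccna2 and Mki67 were called above the shift of the outside genes in every fit that left out 1 array. The count above that shift was 3 of 46 without control 1, 5 without control 2 or without tumour 2, and 24 without tumour 1.

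**Figure D4:**
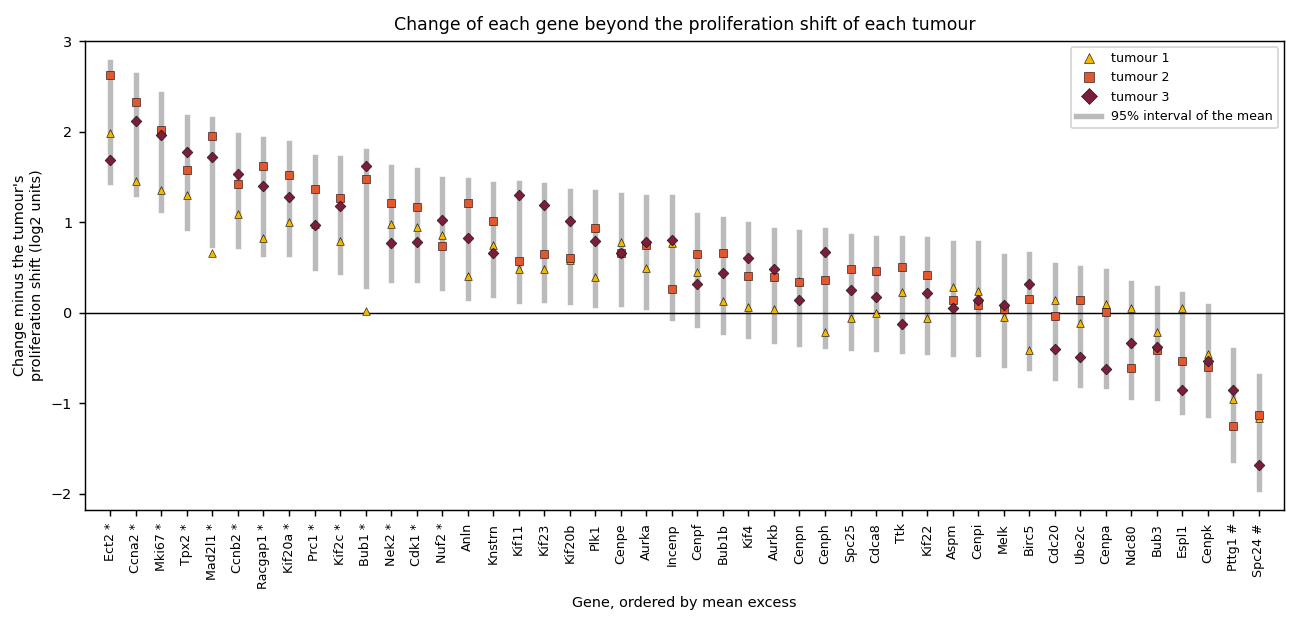
Change of each of the 46 genes beyond the proliferation shift of the same tumour, in log2 units (y axis), with 1 marker per tumour and a grey bar for the 95% interval of the mean from limma. Genes are ordered by mean excess (x axis), with an asterisk for those called above the shift and # for those called below it. Ect2, Ccna2, Mki67 and Tpx2 lie at 1.30 or above in every tumour, and Pttg1 and Spc24 lie at -0.85 or below in every tumour.

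Factors that bind the CHR, CCAAT and E2F sequences of such promoters were mixed in direction. Of 24 genes of the MuvB complex, its partners, the E2F family and NF-Y, 3 rose (12.5%) and 5 fell, with a median difference of 0.07. Over all genes tested, 5.6% rose and 4.96% fell. Foxm1, which activates genes of G2 and mitosis through MuvB, had values of 4.93 and 5.16 (controls) against 5.21, 5.70 and 5.80 (tumours 1, 2 and 3), a difference of 0.53 that did not pass (95% confidence interval 0.01 to 1.04; limma adjusted p = 0.191). Mybl2 (B-Myb), the other activating partner, stood at 5.85 and 5.95 (controls) against 6.37, 6.54 and 6.41 (tumours 1, 2 and 3) and rose by 0.53 (adjusted p = 0.0488). That p lay close to the threshold, and the difference was as large as that of Foxm1. Whether the call of Mybl2 holds in other fits was not examined. Mybl1 rose by 1.67 from dim control values (adjusted p = 0.0235), and Rbl1 (p107) by 1.64 (0.0232). Rbl2 (p130), the pocket protein of the complex that represses these genes in resting cells, stood at 8.75 and 9.11 (controls) against 7.87, 7.27 and 7.80 (tumours 1, 2 and 3) and fell by 1.28 (adjusted p = 0.0233). Tfdp2, a dimerisation partner of E2F factors, fell by 1.39 (adjusted p = 0.00342) and Nfyb, a subunit of NF-Y, by 1.13 (0.006). The MuvB subunits Lin52 and Rbbp4 fell by 0.59 and 0.69 (adjusted p = 0.0406 and 0.0419). Rbl2, Mybl1, Lin52 and Rbbp4 were chosen after their values were seen, to complete the calls of this list. E2f7 and E2f8, atypical E2F factors that act on hepatocyte ploidy, differed by 0.09 and -0.15 (adjusted p = 0.815 and 0.79).

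A CHR stood in 9 of 13 risen genes with a listed promoter (69.2%) and in 20 of 27 others (74.1%), and a CCAAT box in 10 of 13 (76.9%) and 20 of 27 (74.1%). A CHR within 75 bases of the start was listed for 7 of 13 risen genes (53.8%) and 20 of 27 others (74.1%), and these differences were not tested. Counting 1 start per gene, the 13 risen genes held 13 CHR matches and 21 CCAAT boxes, and the 27 others 24 and 38. Ect2, Mki67, Ccnb2 and Cdk1 rose and hold both, whereas Espl1, with both close to its start, differed by 0.08. Nuf2 and Knstrn rose with neither in the window. These shares are descriptions of letters in 1 annotated window per start.

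Markers of cells other than hepatocytes also differed between the groups. Hepatocyte markers were strong on every array, with transthyretin (Ttr) at 12.49 and 12.51 (controls) against 11.92, 11.91 and 11.53 (tumours 1, 2 and 3), and 1 of 8 measured fell. Of 12 macrophage markers 8 rose and 0 fell, and their medians lay 2.44, 1.82 and 2.59 above the controls in tumours 1, 2 and 3. Their summed linear level was 1475 and 1871 in the controls and 5786 to 10201 in the tumours, and 0 of 12 were dim in the controls. T and NK cell markers (0 of 10 called, 3 at an unadjusted p under 0.05, 4 dim in the controls) had medians of 0.27, 0.29 and 1.22, highest in tumour 3. Endothelial medians were 1.10, 0.22 and -0.49 and those of stellate cells and fibroblasts 1.12, 0.52 and 0.06 (1 of 10 risen in each list), lowest in tumour 3. Limma called 0 of 8 B cell, 0 of 9 neutrophil, 0 of 5 erythroid and 0 of 7 cholangiocyte markers, with 2, 0, 2 and 4 at an unadjusted p under 0.05. The part of these cells in the higher values of the set was not tested. Hdac3 itself, which the labels give as null in the tumours, stood at 8.21 and 8.37 (controls) against 6.78, 6.57 and 6.65 (tumours 1, 2 and 3) and fell by 1.62 (95% confidence interval -1.95 to -1.30; limma adjusted p = 0.00298).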

How the data were processed

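Expression was measured on 5 Affymetrix mouse gene arrays, 2 of control livers and 3 of Hdac3-null liver tumours, which the labels call biological replicates. The deposited table holds 1 log2 value per probe set. The submitters' processing notes name GCOS and RMA, and the build is given in none of the sources used. The values already share nearly the same median on each array (5.66 to 5.77), and they were used without further normalisation. Gene symbols came from the annotation of the array platform. Exactly 1 symbol was listed for 21789 of the 28853 probe sets, several for 1621 and none for 5443. Only the first kind was used, and a gene with more than 1 probe set (999 genes) was represented by the one with the highest mean over all arrays. Table columns of samples outside the 5 arrays were absent.

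Differences were tested with limma 3.58.1 in R 4.3.3 (lmFit and eBayes, 3 residual degrees of freedom), with Benjamini-Hochberg adjustment over all 19938 genes and a threshold of 0.05, two-sided. The proliferation shift of an array was subtracted from all its values and the fit was repeated. The number of arrays limits the precision, and p-values measure the spread between these samples. In the fit with the shift subtracted they also carry the spread of the shift. The scripts were tested on simulated data. Every gene of the set could be named. The value on each array was given for the genes called against the controls and for the 8 with the largest and 5 with the smallest excess over the shift, and for Bub1, Spc25 and Melk, chosen after their values were seen. Of each other list up to 3 genes with the smallest p were named, plus Foxm1, Mybl2, E2f7, E2f8 and Hdac3. A gene was called dim where its control mean lay under the 25th percentile of values on the controls. The genes, lists and tests were chosen with earlier results of these data known. Promoter windows came from RefSeq, build GRCm38.p6, and were read with Python 3.11.15. No promoter was listed for Spc24, Incenp, Ccna2, Tpx2, Kif20a and Aurkb.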

Additional observations from a re-analysis of the deposited data

How the results depend on the processing

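The median difference of the set (1.07) stayed between 0.89 and 1.24 over all alternatives, whereas the counts of calls moved. With the dimmest 40% of genes left out, 24 genes of the set remained, of which 10 rose, 9 were called above the shift and 16 lay above it in every tumour. At an adjusted p under 0.01, 1 rose, 0 fell, 8 were above the shift and 1 below it. Tested against a 1.2-fold change, 12 rose and 0 fell. Array weights, whose estimation stopped before convergence, gave 24 risen, 32 above and 6 below the shift. With the median of the set as the reference, 5 were above, 4 below and 19 above in every tumour. The reference of S-phase genes alone gave 16 above, 13 of them shared with the 14, and that of other G2/M genes 14, with 13 shared. Leaving out 1 array at a time gave 0 to 32 risen, 0 to 2 fallen, 3 to 24 above the shift, 0 to 4 below it and 27 to 36 above it in every tumour. Cenpk changed sign with quantile normalisation repeated (0.027) and in fits that left out 1 array (-0.16 to 0.13), and Ube2c (-0.045 to 0.79) and Espl1 (-0.11 to 0.27) did so in the latter, turning negative without control 2. None of the 3 passed the test against the controls in any fit. Counting Sgo1 as Sgol1, an alternative added after the data were seen, left 16 risen and 14 above the shift. The cause of these moves was not tested.

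Arrays of the 2 groups share replicate numbers 1 and 2, and deviations from the group means did not correlate within a number (r = 0.00388 and -0.0129 across genes). The deviations of 2 controls mirror each other, so this check cannot decide whether the numbers pair the samples. With the replicate number as a block, which leaves tumour 3 without a partner and 1 residual degree of freedom, 23 genes rose and 1 fell, which was Pttg1 (-0.73, limma adjusted p = 0.0441) in place of Spc24 (-0.78, 0.0757), 12 were above the shift, and the median difference was 0.89. The calls of Bub1 and Nuf2 above the shift were lost in that fit. Signal near background limits the 12 dim genes.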

Other observations

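Sgo1, the shugoshin that protects centromeric cohesin and the current symbol of the listed Sgol1, stood at 4.83 and 5.35 (controls) against 5.31, 5.36 and 5.60 (tumours 1, 2 and 3). Its difference was 0.33 (95% confidence interval -0.15 to 0.81; limma adjusted p = 0.367), and control 2 lay within the tumours' range.

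E2F-like sequences (TTCCCGC or TTGGCGC, on either strand) were distributed otherwise than the CHR. They stood in the promoters of 28 of 47 S-phase genes (59.6%), 19 of 67 other genes of G2 and mitosis (28.4%), 6 of 40 genes of the kinetochore and cytokinesis set (15.0%) and 7.79% of all genes in the promoter table. Of all genes tested against the controls, 5.6% rose and 4.96% fell. The S-phase list, of genes that copy DNA, had 10 of 59 genes risen (16.9%) and 2 fallen, with a median difference of 0.45. Its genes with the smallest p were Mcm10, which fell by 1.98 (limma adjusted p = 0.00299), and the helicase subunits Mcm6 and Mcm3, which rose by 2.60 (0.00997) and 1.82 (0.012). In the list of other G2 and mitosis genes 15 of 78 rose (19.2%) and 0 fell. The rise was led by the tubulin Tubb5 (1.62, adjusted p = 0.00986), the centromere protein Cenpt (1.02, 0.0122) and the condensin subunit Smc4 (1.32, 0.0177).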
